A study of Rattus norvegicus with 12 samples.

Results

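The apolipoprotein genes are the genes of the protein shell of lipoproteins, and 10 of them were chosen here by symbol: Apoa1, Apoa2, Apoa4, Apoa5, Apob, Apoc1, Apoc2, Apoc3, Apoe and Apom. Of these, 8 had a transcript cluster (the array's unit of probes for one transcribed region) that the platform annotation assigns to that symbol alone, and they are described below out of 18166 genes measured in this way. Apoa1 and Apoc3 were not analysed here. Each of the 8 genes had 1 such cluster. Liver RNA of 12 male obese Zucker rats (Crl:ZUC-Leprfa) was hybridised to Affymetrix Rat Gene 2.0 ST arrays, 1 rat per array. All 12 rats were homozygous (fa/fa) for the defective leptin receptor, so both diets were compared in genetically obese animals. The 6 PSC rats had eaten a diet with 5% PSC, a supplement whose abbreviation the labels do not spell out and which they describe as made biotechnologically on an agricultural side stream. The 6 control rats had eaten a diet without it that was matched in energy and crude nutrients. Feeding began at an age of 5 to 6 weeks, lasted 4 weeks with free access to food, and ended with killing on day 29. The trial fed 12 rats per diet, 24 in all, and how the 6 per diet on arrays were picked is not given here. Housing was 2 to a cage, and the sources used here do not name cage mates.

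Apolipoproteins hold lipoproteins together in plasma and steer them to enzymes and receptors. The liver packs triglyceride and cholesterol around Apob into very low density lipoprotein. Small exchangeable apolipoproteins then move between particles, where they activate or restrain lipoprotein lipase and act as ligands for uptake, and the A-type proteins and Apom also belong to high density lipoprotein. In the RefSeq gene order of the rat assembly GRCr8, Apoa1, Apoc3, Apoa4 and Apoa5 follow each other on chromosome 8, and Apoc2, Apoc4, Apoc1 and Apoe follow each other on chromosome 1. Apoa2, Apob and Apom lie on chromosomes 13, 6 and 20, each with no other of the 10 genes.

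Apoe is compared with its neighbours below and has a RefSeq window too, but its promoter is not shown. The promoters of 4 other genes from these neighbourhoods that enter the comparisons below are shown. Each is a RefSeq window of 300 bases on GRCr8, with 250 bases before the start site and 50 after it, in the direction of transcription. The Apoa4 window is chr8:55435529-55435828 on the plus strand and the Apoa5 window is chr8:55457621-55457920 on the plus strand. The Apoc1 window is chr1:88478256-88478555 on the minus strand and the Apoc2 window is chr1:88462316-88462615 on the minus strand. For Apoa5 and Apoc1 it is the first of 2 windows listed. Capitals mark a TATAAA or GGGCGG match on either strand.
Apoa4: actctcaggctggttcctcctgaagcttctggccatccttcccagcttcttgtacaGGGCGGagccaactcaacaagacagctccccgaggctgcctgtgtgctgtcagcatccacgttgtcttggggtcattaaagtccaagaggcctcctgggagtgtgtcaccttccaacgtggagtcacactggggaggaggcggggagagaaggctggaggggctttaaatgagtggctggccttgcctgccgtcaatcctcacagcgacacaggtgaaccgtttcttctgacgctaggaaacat
Apoa5: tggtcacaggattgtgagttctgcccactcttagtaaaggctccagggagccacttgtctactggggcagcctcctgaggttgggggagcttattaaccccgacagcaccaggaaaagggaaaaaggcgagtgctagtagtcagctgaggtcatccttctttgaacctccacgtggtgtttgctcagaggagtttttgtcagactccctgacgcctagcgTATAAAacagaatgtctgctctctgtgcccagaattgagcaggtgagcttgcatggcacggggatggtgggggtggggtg
Apoc1: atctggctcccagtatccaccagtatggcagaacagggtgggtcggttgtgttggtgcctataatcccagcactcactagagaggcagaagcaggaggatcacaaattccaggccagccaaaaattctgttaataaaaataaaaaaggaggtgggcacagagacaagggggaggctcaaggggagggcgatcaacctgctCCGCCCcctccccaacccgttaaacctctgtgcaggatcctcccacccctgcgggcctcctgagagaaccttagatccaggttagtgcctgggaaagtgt
Apoc2: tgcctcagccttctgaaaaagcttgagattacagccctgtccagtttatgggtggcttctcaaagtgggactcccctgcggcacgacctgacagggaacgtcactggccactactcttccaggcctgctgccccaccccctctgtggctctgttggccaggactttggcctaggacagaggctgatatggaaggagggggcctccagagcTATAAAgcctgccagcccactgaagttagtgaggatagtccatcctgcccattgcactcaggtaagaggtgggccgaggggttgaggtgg
The TATAAA letters began 30 bases before the listed start in Apoa5 and 40 bases before it in Apoc2. RefSeq windows were listed for 6 of the 8 genes, 10 windows in all. TATAAA stood in 3 of the 10 and GGGCGG in 5, against 14.2% and 33.1% of all 33469 RefSeq windows of this length. CCAAT stood in 4 of the 10, in windows of Apoc1, Apoe and Apom, against 37.5% of all windows. The Apoc1 match for CCAAT lies in its other window. Longer letters typical of HNF4A sites (CAAAGTCCA and CAAAGTTCA) and direct repeats of AGGTCA spaced by 1 or by 4 bases, as nuclear receptors bind them, were in 0 of the 10 windows, and were rare everywhere, in 0.391%, 0.32%, 0.0538% and 0.00598% of all windows. Both strands were searched, no motif contains another, and a match or its absence is a description of these letters only.

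All 8 apolipoprotein genes had a higher mean signal in PSC rats than in control rats, and 1 of them, Apoa4, rose past the threshold over all genes tested (limma, Benjamini-Hochberg adjusted p below 0.05, n = 6 rats per diet). Of all genes, 0.716% were called higher and 1.89% lower. At an adjusted p below 0.1, 4 of the 8 were higher, against 2.21% of all genes. A log2 fold change above 0 was found for 54.3% of all genes. The median log2 fold change, PSC minus control, was 0.23 over the 8 genes and 0.01 over all genes. At an unadjusted p below 0.05, 6 of the 8 genes were higher and 0 lower, where 9.02% of all genes were higher and 10.1% lower. In 2 genes, Apoa4 and Apoc2, every PSC array lay above every control array, which held for 0.71% of all genes. Liver pieces hold several cell types, and in bulk RNA a change in the number of cells of a type and a change in RNA per cell cannot be told apart.

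**Figure D1:**
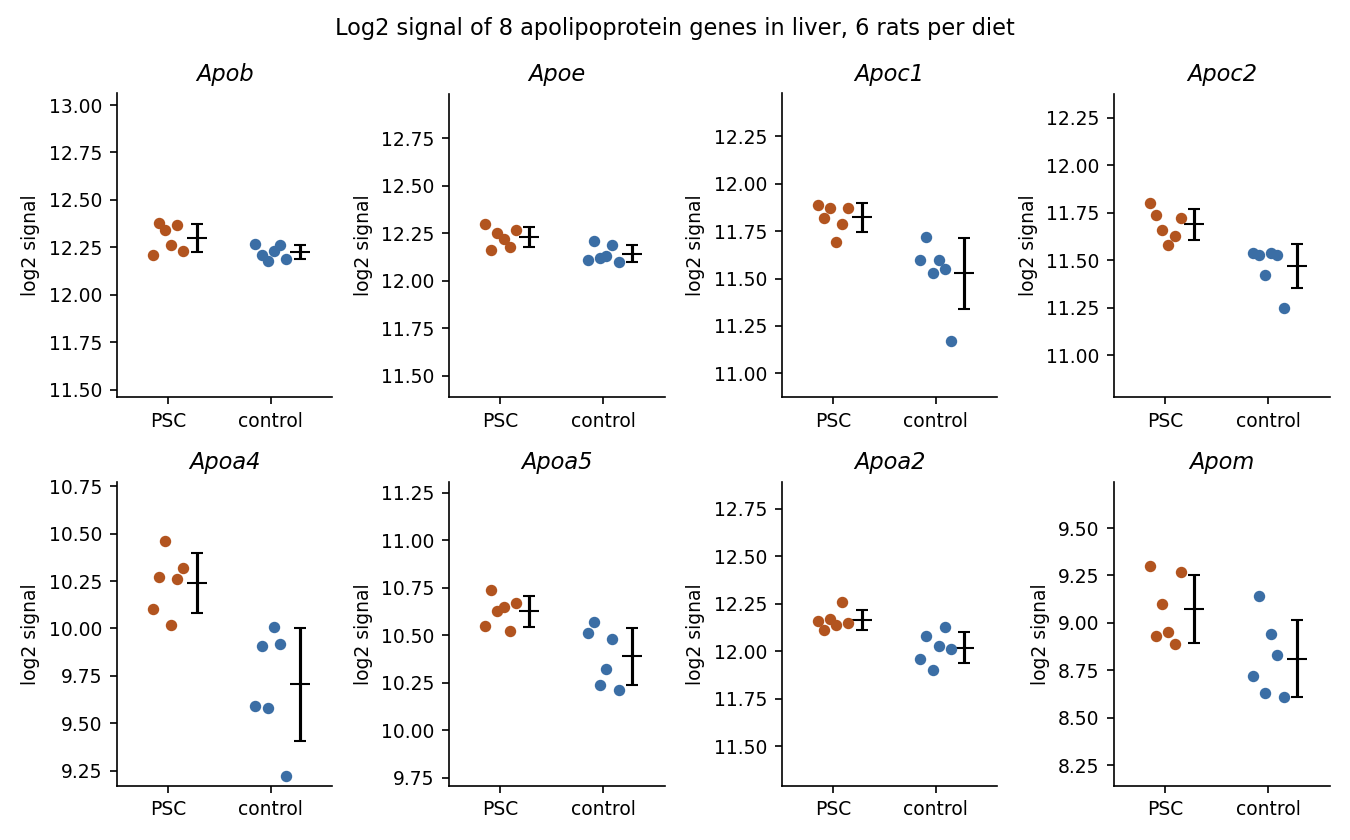
Log2 signal of each of the 8 apolipoprotein genes (vertical axis, all panels spanning the same number of log2 units) in 6 PSC and 6 control rats; points are arrays and the black mark and bar are the mean and SD. Apoa4 and Apoc2 show no overlap between the diets, Apob and Apoe differ least, and control points far below the rest are seen in Apoc1, Apoc2 and Apoa4.

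Apob encodes the large structural protein that stays with its particle from assembly to uptake. Its log2 signal ran between 12.21 and 12.38 in PSC rats (median 12.30) and between 12.18 and 12.27 in control rats (median 12.22). The diets overlapped widely, with 3 PSC arrays above the highest control. The log2 fold change was 0.08 (SE 0.05, adjusted p = 0.453), and its 95% interval of -0.04 to 0.19 corresponds to folds between 0.975 and 1.14. A change of the Apob signal was therefore not detected, and the interval does not exclude a difference of that size.

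Apoe, the ligand through which remnant particles are taken up by the LDL receptor and its relatives, also differed little. Its signal lay between 12.16 and 12.30 in PSC rats (median 12.235) and between 12.10 and 12.21 in control rats (median 12.125), and 4 PSC arrays exceeded the highest control. The log2 fold change was 0.09 (SE 0.05, 95% interval -0.02 to 0.19, adjusted p = 0.363). Besides hepatocytes, macrophages are a known source of Apoe.

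The C-type apolipoproteins Apoc1 and Apoc2 had higher means in PSC rats and did not pass over all genes. Apoc1, a small protein that slows the clearance of triglyceride-rich particles, had signals between 11.69 and 11.89 in PSC rats (median 11.845) and between 11.17 and 11.72 in control rats (median 11.575). Control replicate 2, at 11.72, was the 1 control above the lowest PSC array, and control replicate 6, at 11.17, lay far below the other controls. The log2 fold change of 0.29 (SE 0.08, 95% interval 0.12 to 0.47, a fold of 1.23) did not pass over all genes (adjusted p = 0.066). Without control replicate 2 it was 0.33 and passed (adjusted p = 0.0432). Without control replicate 6 it was 0.22.

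Apoc2 encodes the cofactor that lipoprotein lipase needs to hydrolyse triglyceride. Its signals lay between 11.58 and 11.80 in PSC rats (median 11.69) and between 11.25 and 11.54 in control rats (median 11.53), where 4 arrays were at 11.53 or 11.54 and the other two at 11.42 and 11.25. The diets did not overlap, and the lowest PSC array stood 0.04 above the highest controls. The log2 fold change was 0.22 (SE 0.06, 95% interval 0.08 to 0.36, a fold of 1.16) and did not pass (adjusted p = 0.0816).

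Apoa4, a lipid-binding protein of triglyceride-rich particles and of high density lipoprotein, had the largest difference of the 8 genes. Its signals were 10.10, 10.27, 10.46, 10.02, 10.26 and 10.32 in PSC replicates 1 to 6 (median 10.265) and 9.59, 9.91, 9.58, 10.01, 9.92 and 9.22 in control replicates 1 to 6 (median 9.75). All 6 PSC arrays lay above every control, but PSC replicate 4 and control replicate 4 were separated by only 0.01, and control replicate 6 was the lowest of all 12. The means were 10.24 ± 0.16 in PSC rats and 9.71 ± 0.30 in control rats (SD, n = 6 each). The difference of 0.53 on the log2 scale (SE 0.12, 95% interval 0.27 to 0.79) is 1.45-fold and passed over all genes (limma, adjusted p = 0.035). The call did not survive leaving out any of 8 arrays. The adjusted p was 0.0536, 0.0555, 0.0611, 0.0689 and 0.0758 without PSC replicates 1, 2, 3, 5 and 6, and 0.0825, 0.0672 and 0.0532 without control replicates 1, 3 and 6. It was 0.0613 with all transcript clusters tested, while the fold change stayed between 0.44 and 0.59 on the log2 scale in these 12 fits.

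Apoa5, the neighbour of Apoa4, promotes the breakdown of triglyceride-rich particles at the vessel wall. Its signals lay between 10.52 and 10.74 in PSC rats (median 10.64) and between 10.21 and 10.57 in control rats (median 10.40). Control replicate 2 reached into the PSC range, at 10.57, and control replicate 1 lay just below it, at 10.51, whereas control replicates 3, 4 and 6 lay at 10.32 or below. The log2 fold change was 0.24 (SE 0.07, 95% interval 0.08 to 0.39, adjusted p = 0.0912).

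Apoa2 and Apom are proteins of high density lipoprotein, and Apom carries the signalling lipid sphingosine-1-phosphate. Apoa2 had signals between 12.11 and 12.26 in PSC rats (median 12.155) and between 11.90 and 12.13 in control rats (median 12.02), with 5 PSC arrays above the highest control. Its log2 fold change was 0.15 (SE 0.05, 95% interval 0.03 to 0.26, adjusted p = 0.162). Apom varied more within each diet, between 8.89 and 9.30 in PSC rats (median 9.025) and between 8.61 and 9.14 in control rats (median 8.775). PSC replicates 1 and 6 stood apart from the other PSC arrays, at 9.30 and 9.27, and control replicate 2 reached 9.14. The log2 fold change of 0.26 (SE 0.10, 95% interval 0.05 to 0.48, adjusted p = 0.174) was accompanied by overlap of the diets, with 2 PSC arrays above the highest control.

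Some arrays were low or high in most of the genes. Control replicate 6 was the lowest of all 12 arrays for 6 of the 8 genes and control replicate 3 for the other two, Apob and Apoa2. Averaged over the 8 genes, control replicate 6 lay 0.31 below the genes' means (-0.31) and control replicate 3 at -0.20. Control replicate 2 was the only control with an average above the means, at 0.02, and had 4 of 8 genes above them. Every PSC array had a positive average, between 0.04 (PSC replicate 4) and 0.16 (PSC replicate 6). Without control replicate 6 the median log2 fold change of the 8 genes was 0.19, and all 8 stayed above 0.

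**Figure D2:**
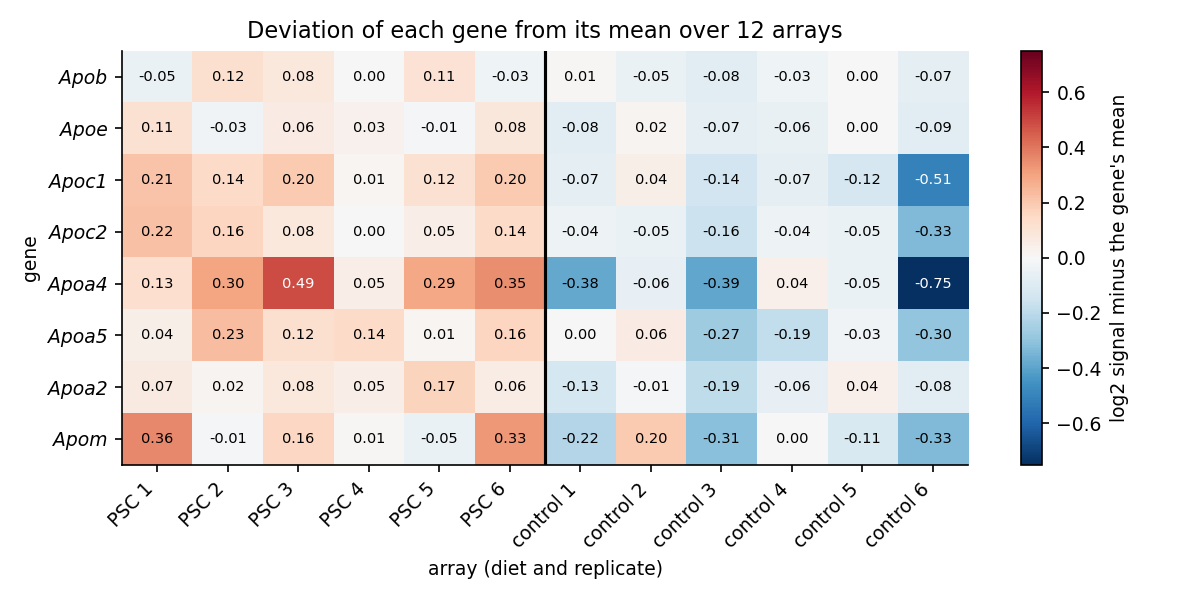
Log2 signal of each apolipoprotein gene (rows) on each array (columns, PSC to the left of the line and control to the right) minus the gene's mean over 12 arrays, in colour and as a printed value. Control replicate 6 is low in most genes and lowest in Apoa4, at -0.75, whereas PSC replicate 3 is above the mean in all 8 genes.

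Once each diet's mean was taken out, Apoc1 and Apoc2 had the closest course of any 2 of the 8 genes over the 12 arrays (Pearson r = 0.88). Apoe and Apom followed, with r = 0.86. The closest member to Apoa4 and to Apoa5 was Apoc1, with r = 0.78 and 0.59, whereas Apob and Apoa2 followed no other member closely (highest r = 0.37 and 0.44, both with Apoa4). Among all other named genes, the course most like that of Apoc1 was Prg4 (r = 0.97, Spearman rho = 0.82) and the one most like Apoc2 was Cxcl12 (r = 0.94, rho = 0.73). For Apoa4 it was Nlrp12 (r = 0.91, rho = 0.93), for Apoe Pabir1 (r = 0.95, rho = 0.93), and for Apom Acox2, an oxidase of bile acid side chains (r = 0.95, rho = 0.91). For Apob it was Prkaa2, a catalytic subunit of AMP-activated protein kinase (r = 0.94, rho = 0.93), for Apoa2 Bcdin3d (r = 0.93, rho = 0.91), and for Apoa5 Vom1r38, a dim cluster (r = 0.89, rho = 0.88). These are the highest of very many correlations over 12 arrays that share 1 normalization, so they describe likeness and carry no test. Without the 2 arrays farthest from the diet mean of the member, r with these most alike genes lay between 0.85 and 0.93. The r between members was not computed without any array. Control replicate 6, the lowest array for Apoa4, Apoa5, Apoc1, Apoc2, Apoe and Apom, is part of each of those values.

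The difference of 2 log2 signals on the same array sets a gene beside its neighbours. These differences were chosen with the diet differences of the genes known, so they restate those values array by array and are given as a description, with no test. Apoe minus the mean of Apoc1 and Apoc2 was 0.48 ± 0.07 in PSC rats and 0.65 ± 0.13 in control rats (SD, n = 6 each), a shift of -0.17. It ran between 0.38 and 0.585 in PSC rats (median 0.473) and between 0.54 and 0.89 in control rats (median 0.615), so that the diets overlapped, with control replicate 6 highest. Apoe lay nearer to the top of the array's range than Apoc1 and Apoc2 (values below), and the part of this in the shift was not tested.

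Apoa4 minus Apoa5 was -0.39 ± 0.16 in PSC rats and -0.68 ± 0.25 in control rats (SD, n = 6 each), a shift of 0.295. The values overlapped, between -0.63 and -0.17 in PSC rats (median -0.40) and between -0.99 and -0.31 in control rats (median -0.66). Apoa5 was the 1 measured neighbour of Apoa4 in this comparison, which had been planned with Apoa1 and Apoc3 as well.

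**Figure D3:**
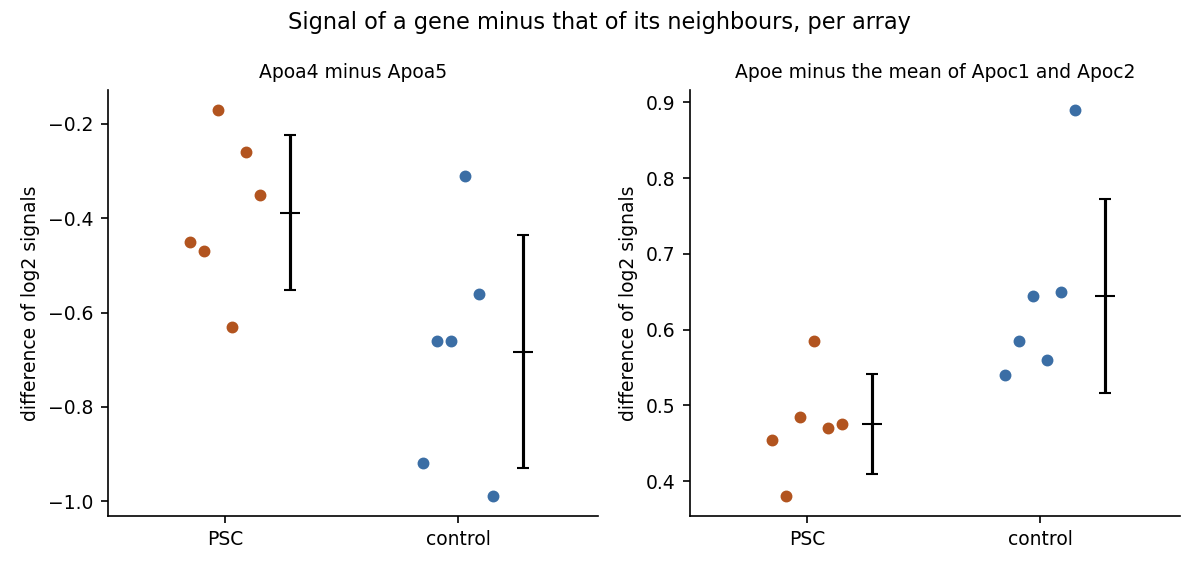
Difference of log2 signals on the same array (vertical axis) for Apoa4 minus Apoa5 and for Apoe minus the mean of Apoc1 and Apoc2, in 6 PSC and 6 control rats; points are arrays and the black mark and bar are the mean and SD. The first difference has a higher mean and the second a lower mean in PSC rats with overlap of the diets, and control replicate 6 is at the extreme of both.

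The apolipoprotein genes are among the brightest on the array, and several lie close to the top of its range. The highest log2 signal of an array was between 13.11 and 13.21. The value table has no saturation flags, so closeness to that highest value is given in their place, and signals of different transcript clusters do not rank the amounts of their transcripts. Apob lay 0.898 log2 units below the array's highest signal on average and Apoe 0.973, and these 2 genes were within the margin of 1 set for closeness to the top. Apoa2 stood just outside it, at 1.07, with its nearest array at 0.86. Apoc1 and Apoc2 followed at 1.48 and 1.58, then Apoa5 at 2.65, Apoa4 at 3.19 and Apom at 4.22.

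The 3 genes nearest to the top were also the 3 with the smallest differences between diets, and Apob and Apoe had the smallest spread within a diet, at 0.06 and 0.05. Among all 33 genes within 1 log2 unit of the top, the median spread within a diet was 0.06, against 0.14 over all genes, and the median absolute log2 fold change was 0.05. The highest log2 fold change among the 33 was 0.195, and 0 passed over all genes by limma, where 2.6% of all genes were called. At an unadjusted p below 0.05, 3 of the 33 were higher and 0 lower, against 9.02% and 10.1% of all genes. Among the 93 genes between 1 and 2 units from the top, the median spread was 0.09. Their median absolute log2 fold change was 0.09, close to the 0.09 of all genes. For the 220 genes between 2 and 3 units from the top, the median spread was 0.09 and the median absolute log2 fold change 0.07. The part of closeness to the top in the small differences of Apob, Apoe and Apoa2 was not tested.

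**Figure D4:**
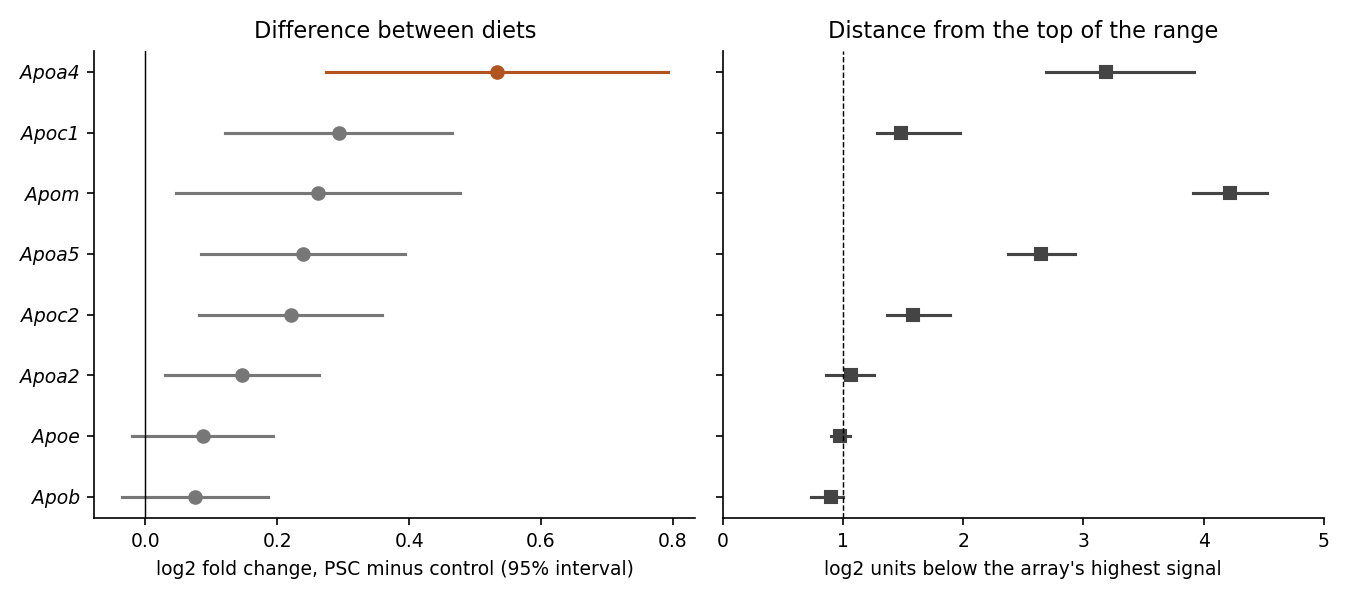
Left, log2 fold change of each apolipoprotein gene, PSC minus control, with its 95% interval (n = 6 rats per diet; brown, past the threshold over all genes; grey, not). Right, distance in log2 units below the array's highest signal, as the mean (square) and range over 12 arrays, with a dashed line at 1; Apob, Apoe and Apoa2, which lie nearest the top, have the 3 smallest fold changes.

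Other genes of lipoprotein handling did not share a direction. Of 91 listed genes, transcription regulators of apolipoprotein genes included, 75 were measured. Over all genes tested 4 rose and 3 fell, or 9.33% against 2.6% of all genes, with a median log2 fold change of 0.04. The 4 that rose were all transcription regulators. The 3 that fell were genes of assembly and secretion or of remodelling, lists in which 0 rose. Among 12 measured other apolipoproteins and high density lipoprotein proteins, 0 passed by limma. At an unadjusted p below 0.05, 3 of the 12 were higher and 1 lower, against 9.02% and 10.1% of all genes. Apof, the lipid transfer inhibitor protein, had 0.35 (SE 0.10, adjusted p = 0.0772), and Clu, or clusterin, -0.19 (SE 0.07, adjusted p = 0.155).

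Among 11 genes of assembly and secretion 1 fell, where 1.89% of all genes were called lower. Apobec1, the cytidine deaminase that edits Apob messenger RNA, had signals between 7.81 and 8.02 in PSC rats (median 7.905) and between 8.13 and 8.31 in control rats (median 8.22). The diets did not overlap, and the log2 fold change was -0.31 (SE 0.05, adjusted p = 0.0109). It was called in all 12 fits without 1 array (adjusted p at most 0.0329). Editing itself was not measured by the array. Sec23a, a coat protein of vesicles leaving the endoplasmic reticulum, and Sort1, a sorting receptor that binds Apob particles, had 0.23 and -0.21 and did not pass (adjusted p = 0.108 and 0.112).

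In remodelling of lipoproteins in plasma, 2 of 10 genes fell and 0 rose, where 1.89% of all genes were called lower and 0.716% higher. Lpl, the lipase that Apoc2 activates, averaged 4.96 ± 0.22 in PSC rats and 5.63 ± 0.24 in control rats (log2 fold change -0.66, SE 0.12, adjusted p = 0.013). Its mean in PSC rats was close to the array medians of 4.71 to 4.85. Pla2g7, the lipoprotein-associated phospholipase made mainly by macrophages, averaged 5.45 ± 0.64 in PSC rats and 6.40 ± 0.26 in control rats (-0.95, SE 0.23, adjusted p = 0.0454). Lpl was called in all 12 fits without 1 array, and Pla2g7 in the 3 without PSC replicate 3, PSC replicate 4 or control replicate 2 (adjusted p up to 0.105 in the others). The phospholipid transfer protein gene Pltp and the hepatic lipase gene Lipc had 0.33 and 0.25 and did not pass (adjusted p = 0.0771 and 0.0862). Among 14 lipid transporters and receptors 0 passed by limma. At an unadjusted p below 0.05, 4 of the 14 were higher and 1 lower, against 9.02% and 10.1% of all genes. Pdzk1, a scaffold that keeps the high density lipoprotein receptor Scarb1 at the membrane, had 0.46 (adjusted p = 0.0803), and the scavenger receptor gene Stab1 had 0.22 (adjusted p = 0.107).

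Of 28 measured transcription regulators of apolipoprotein genes, 4 rose and 0 fell, with a median log2 fold change of 0.06, where 0.716% of all genes were called higher and 1.89% lower. At an unadjusted p below 0.05, 7 were higher and 1 lower, against 9.02% and 10.1% of all genes. Rxra, the shared partner of many nuclear receptors, had signals between 9.78 and 9.86 in PSC rats and between 9.34 and 9.69 in control rats, and rose by 0.32 (SE 0.06, adjusted p = 0.0186). Srebf1, the lipogenic regulator, rose by 0.72 (SE 0.14, adjusted p = 0.0228). Ppara, the fatty acid sensor, rose by 0.41 (SE 0.09, adjusted p = 0.0345) and Cebpa, a factor of hepatocyte differentiation, by 0.30 (SE 0.07, adjusted p = 0.0412). Leaving out control replicate 1 ended all 4 calls, with an adjusted p of 0.05002 for Rxra, 0.0625 for Srebf1, 0.0731 for Ppara and 0.0996 for Cebpa. Srebf1 was also lost without PSC replicate 1, PSC replicate 6 or control replicate 4 (0.0503, 0.0542 and 0.0515). Ppara was called in 4 of the 12 such fits, those without PSC replicate 1, 3 or 4 or control replicate 2, and Cebpa only in the fit without control replicate 2. The log2 fold changes stayed between 0.27 and 0.80 for these 4 genes. Smarcd3, a chromatin remodelling subunit, and Onecut1, a liver transcription factor, had 0.26 and 0.66 and did not pass (adjusted p = 0.0925 and 0.158).

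**Figure D5:**
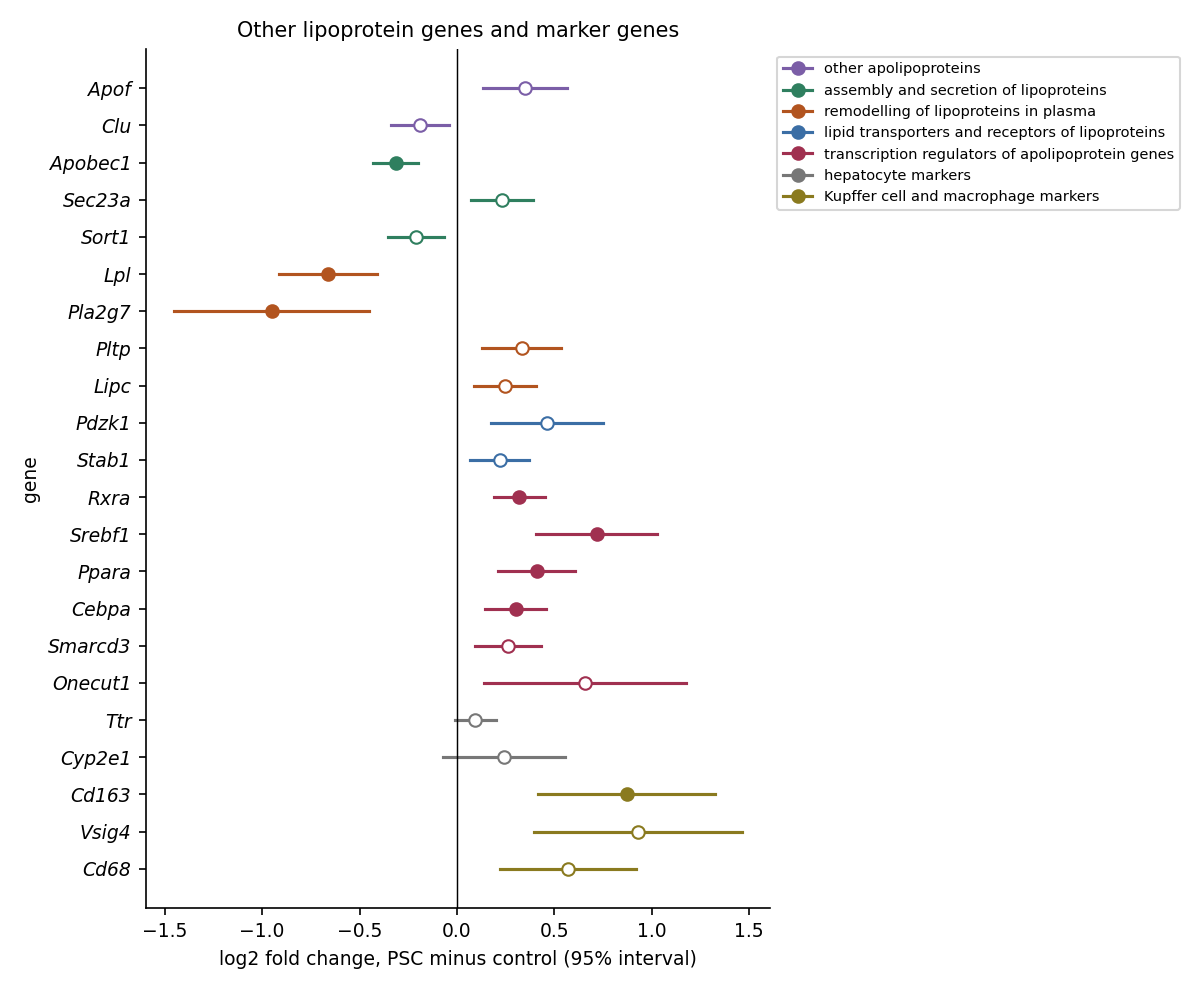
Log2 fold change, PSC minus control, with its 95% interval (n = 6 rats per diet) for other genes of lipoprotein handling and for marker genes, coloured by list; filled points passed the threshold over all genes and open points did not. Lpl, Pla2g7 and Apobec1 are lower and the 4 regulators Rxra, Srebf1, Ppara and Cebpa higher in PSC rats.

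Hepatocyte markers were bright on every array and 0 of 10 passed by limma, where 2.6% of all genes were called. While 9.02% of all genes were higher and 10.1% lower at an unadjusted p below 0.05, 0 of these 10 markers were. Their mean log2 signal ran between 11.51 and 11.64 in PSC rats and between 11.45 and 11.57 in control rats, with Ttr at 0.10 (adjusted p = 0.32) and Cyp2e1 at 0.24 (adjusted p = 0.388). The Cyp2e1 value rested on control replicate 6 and was 0.09 without it. Kupffer cell and macrophage markers, whose cells also make Apoe and Apoc1, had a median log2 fold change of 0.26 over 18 genes, with 15 above 0. Of these, 1 rose, the haemoglobin scavenger receptor gene Cd163, by 0.87 (SE 0.21, adjusted p = 0.0436). Cd163 was called in 4 of the 12 fits without 1 array, those without PSC replicate 2, PSC replicate 4, control replicate 1 or control replicate 2, with an adjusted p of up to 0.0884 in the others and a log2 fold change between 0.66 and 0.96. Vsig4 and Cd68 had 0.93 and 0.57 (adjusted p = 0.0606 and 0.0759), and 10 of the 18 were higher and 1 lower at an unadjusted p below 0.05, against 9.02% and 10.1% of all genes. The 1 call of 18 stands beside 0.716% of all genes called higher. The mean log2 signal of the list ran between 7.05 and 7.37 in PSC rats and between 6.49 and 7.17 in control rats, and no value of the table marks a gene as absent. The part of these cells in the apolipoprotein values was not tested.

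Enterocyte markers, listed because the intestine is another source of Apoa4 and Apob, were dim on average. Their mean log2 signal ran between 4.82 and 5.13 in PSC rats and between 4.86 and 4.99 in control rats. That mean includes Apobec1, the brightest of the list at 8.06 over the 12 arrays. Of 10 measured, 1 rose and 1 fell, where 0.716% of all genes were called higher and 1.89% lower. Cdx2 rose by 0.37 (limma, adjusted p = 0.035, and up to 0.0777 in the 7 of 12 fits without 1 array that lost the call). Its means, 5.06 in PSC rats and 4.69 in control rats, were close to the array medians of 4.71 to 4.85. Apobec1, which the liver also expresses in rats, fell. Alpi and Cdhr5 had 0.27 and -0.19 (adjusted p = 0.235 and 0.246), and 0.15 without PSC replicate 2 and -0.12 without control replicate 6. Among 7 adipocyte markers 1 fell and 0 rose. Fabp4, which macrophages express too, fell, with means of 4.85 in PSC rats and 6.35 in control rats, a fold of 0.354 (limma, adjusted p = 0.00514). At an unadjusted p below 0.05, 2 of the 7 were higher and 1 lower, against 9.02% and 10.1% of all genes. Cfd and Lep had 0.33 and 0.17 (adjusted p = 0.0644 and 0.211), and Lep 0.11 without PSC replicate 2. The part of these cells was likewise not tested.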

How the data were processed

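For each of 12 liver arrays the authors deposited 1 log2 signal per transcript cluster. The submitters' processing notes name Affymetrix Expression Console and RMA, a method that corrects background, makes array distributions alike and combines a cluster's probes. Its versions, and a genome build, are not stated in those sources. The values were used without further normalization, and array medians lay between 4.71 and 4.85. The number of arrays limits the precision.

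Of 30347 transcript clusters, 18511 have 1 symbol in the platform annotation, 575 have several and 11261 have none. The brightest cluster stood for a gene, which left 18166 genes, 18059 of them matched to RefSeq by gene number. Diets, taken from the sample titles, were compared with limma 3.58.1 in R 4.3.3 (two-sided, Benjamini-Hochberg over all genes, threshold 0.05). Differences between neighbouring genes had been planned with an exact permutation test and are given as values only, because they were chosen from known differences. Tested on simulated data for these 18166 genes, the fit called 72% of 100 genes shifted by 0.5 log2 units and 99% of 100 shifted by 1, and 13 of its 184 calls fell on unchanged genes. The simulated noise was independent between genes and all shifts were upward. Noise that genes of an array share was left out, so these shares need not hold for the real arrays.

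The members, the lists and the neighbour comparisons were chosen with earlier results of these data known. Named are all members and, per list, genes past the threshold and the next 2 by p. For each member the gene with the most similar course, LOC and RGD numbers passed over, is also named. Alternatives were all transcript clusters, averaging clusters of 1 gene, a filter on dim genes, median centring, repeated quantile normalization, cyclic loess, a variance prior with trend or a robust one, array weights, a replicate block, a threshold of 0.1, a wider margin to the array's top, and leaving out arrays. Figures were drawn with matplotlib 3.10.9.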

Additional observations from a re-analysis of the deposited data

Results flagged for a closer look

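In 9 of 76 groups of 6 arrays, 1 array lay farther from the rest than Dixon's 95% limit allows, where chance flags about 1 in 20. Control replicate 6 was such an array for Apoc1 (11.17, the next lowest 11.53), and for the difference of Apoe minus the mean of Apoc1 and Apoc2 (0.89, the next highest 0.65). It was also far below the other controls for Sec23a (8.41), Lipc (10.72) and Cyp2e1 (9.53). PSC replicate 2 was far above the other PSC arrays for Smarcd3 (5.76), Alpi (4.61) and Lep (4.05). Control replicate 1 was far below the other controls for Cd163 (4.96). Without control replicate 6 the log2 fold change was 0.22 for Apoc1, 0.17 for Sec23a, 0.21 for Lipc and 0.09 for Cyp2e1. Without PSC replicate 2 it was 0.15 for Alpi and 0.11 for Lep, and without control replicate 1 it was 0.66 for Cd163.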

How the results depend on the processing

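Of 23 other settings, 6 leave the members' log2 fold changes as they are by construction. In the 17 that can move them, all 8 apolipoprotein genes stayed above 0, and their median ran between 0.19 and 0.25. The call of Apoa4 was lost with all transcript clusters tested (adjusted p = 0.0613), with the replicate block (0.0889), without PSC replicates 2 and 5 together (0.108) and in 8 of the 12 fits without 1 array. Apoc1 and Apoc2 passed with the filter on dim genes (0.0334 and 0.0382) and the variance prior with trend (0.0357 and 0.0397), and Apoa5 with the filter only (0.0461). The member count, 1, became 4 with a threshold of 0.1 or the filter, 3 with the trend, and 0 with all clusters, the replicate block or without PSC replicates 2 and 5. Leaving out 1 array gave between 0 and 2. The count over all genes, 473, became 1140, 797, 254, 94 and 225 with the threshold of 0.1, the filter, all clusters, the replicate block and without PSC replicates 2 and 5, and ran between 142 and 735 without 1 array. The other lipoprotein genes, 7 calls, gave 12 with the threshold of 0.1, 4 with all clusters and without PSC replicates 2 and 5, 2 with the replicate block, and between 2 and 7 without 1 array. The macrophage markers, 1 call, gave 4 with the threshold or the filter, 2 with the trend, 0 with all clusters or without PSC replicates 2 and 5, and between 0 and 2 without 1 array. The shift of Apoa4 minus Apoa5 was 0.28 without PSC replicates 2 and 5 and between 0.23 and 0.37 without 1 array. The shift of Apoe minus the mean of Apoc1 and Apoc2 was -0.145 without PSC replicates 2 and 5 and between -0.19 and -0.12 without 1 array. Both shifts were the same, 0.295 and -0.17, with the replicate block, and carry no test. With a margin of 2 log2 units 5 genes counted as near the top, in place of 2. The filter tests fewer genes, and leaving out arrays or adding the block leaves fewer degrees of freedom. The cause of the changed calls was not tested in any of these settings. Deviations of same-numbered PSC and control arrays correlated between -0.15 and 0.11 across genes, against between -0.16 and 0.26 for arrays of unlike number. In 1 of 6 PSC arrays the best correlation was with the control of its own number. The sample titles give only a number, and these correlations cannot decide whether it pairs the rats. RMA signals near the array's highest value and the lack of detection calls limit what can be said of bright and dim genes.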
